A study of Caenorhabditis elegans with 2 samples.

Results

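The 4 genes snpc-4, tbp-1, brf-1 and rpc-1, which encode parts of the machinery for making small RNAs, were examined in a map of CHD-7 binding in the nematode Caenorhabditis elegans. They were chosen by name with the measured values of these peak lists in view, so their counts, signals and ranks are given as a description, with no test. For each gene, every peak summit in the gene and within 5 kb on either side was taken from the list of reproducible peaks and from the longer list of pooled candidates. The 4 genes were 4 of 19973 annotated protein-coding genes. Their regions held 2 of the 1884 reproducible summits, 1 at snpc-4 and 1 beyond the end of tbp-1, and 23 of the 30000 pooled candidates.

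SNPC-4 is the large DNA-binding subunit of the small nuclear RNA activating protein complex (SNAPc), which binds upstream of small nuclear RNA and spliced leader RNA genes and, in C. elegans, also works at piRNA genes. TBP-1 is the TATA-binding protein, used by all of the nuclear RNA polymerases. BRF-1 joins TBP in the initiation factor TFIIIB, which brings RNA polymerase III to transfer RNA genes and other short genes, and RPC-1 is the largest subunit of that polymerase. CHD-7 is a chromatin remodelling ATPase of the CHD family.

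The chromatin came from whole young adults of strain OP609, with the genotype unc-119(tm4063) III; wgIs609, an integrated transgene that expresses CHD-7 with GFP and FLAG at its C terminus. The animals were pooled from both sexes and collected 67 hours after synchronisation as starved L1 larvae, the chromatin was sonicated, and the tagged protein was precipitated with an antibody against GFP. Both biological replicates carried the same transgene and formed 1 group, so no condition, genotype or untagged control was compared, and the control experiment was not analysed here. Nothing in the labels says from which cells of the animal the bound chromatin came. Each deposited entry has a signal, the peak caller's own value, which is used here to order entries within a list. Signal ran from 165.7 to 5232, with a median of 216, in the reproducible list, which held the 1884 entries of highest signal in the pooled list. A gene can therefore enter it without a high rank in both replicates.

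The sequences around the strongest summits of tbp-1, brf-1 and rpc-1 are shown because they underlie the leading entries near those genes and differ in content. Each is 201 bases of the forward strand of the WBcel235 assembly (the sequence of ce11), centred on the pooled summit, as given by RefSeq. In the first, chrIII:7387505-7387705, the capitals mark GGTTCGA, the core of the B box, an element inside transfer RNA genes that is read by TFIIIC. In the others, chrII:7309013-7309213, chrII:7308210-7308410 and chrIV:7159680-7159880, the capitals mark the 21 bases around the summit.
tbp-1 region, reproducible summit: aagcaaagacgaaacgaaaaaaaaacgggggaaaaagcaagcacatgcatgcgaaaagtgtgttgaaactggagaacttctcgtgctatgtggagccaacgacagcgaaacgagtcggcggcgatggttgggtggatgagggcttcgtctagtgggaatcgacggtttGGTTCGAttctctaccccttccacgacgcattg
brf-1 region, strongest candidate: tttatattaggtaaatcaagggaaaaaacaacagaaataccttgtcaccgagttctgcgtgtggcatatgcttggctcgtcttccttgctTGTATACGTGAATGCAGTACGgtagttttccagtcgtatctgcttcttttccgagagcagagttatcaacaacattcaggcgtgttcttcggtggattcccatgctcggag
brf-1 region, next candidate: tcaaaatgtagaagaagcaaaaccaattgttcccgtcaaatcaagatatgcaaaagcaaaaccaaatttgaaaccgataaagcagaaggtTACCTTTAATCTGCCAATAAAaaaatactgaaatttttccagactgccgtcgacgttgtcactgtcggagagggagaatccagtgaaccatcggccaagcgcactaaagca
rpc-1 region, strongest candidate: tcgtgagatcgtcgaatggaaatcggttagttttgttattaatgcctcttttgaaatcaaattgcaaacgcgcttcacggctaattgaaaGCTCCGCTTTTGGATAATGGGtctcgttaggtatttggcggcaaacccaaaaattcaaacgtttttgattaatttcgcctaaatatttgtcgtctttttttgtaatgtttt
The share of G and C was 50.7% in the window near tbp-1, 44.3% and 40.3% in those of brf-1 and 36.3% in that of rpc-1.

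Across the 4 genes the strongest signal varied more than the number of candidates, but only through the entry at snpc-4. Among the other genes the strongest signal varied less than the number. The strongest summit had a signal of 5232 at snpc-4, 170.7 near tbp-1, 131.1 near rpc-1 and 124.5 near brf-1. The matching replicate entries had signals of 3774, 88.8, 67.1 and 69.0 in replicate 1 and of 1495, 101, 66.4 and 48.4 in replicate 2. The order of snpc-4 before tbp-1 before the other pair was the same in every list, while rpc-1 and brf-1 changed places between replicates in these entries. By the highest entry of each region, rpc-1 was above brf-1 in both, at 82.6 against 74.0 in replicate 1 and 66.4 against 55.6 in replicate 2. snpc-4 had 8 candidates, brf-1 had 7, and tbp-1 and rpc-1 had 4 each, against a median of 4 over all protein-coding genes. Allowing for gene length, this was 0.579 candidates per kb at snpc-4, 0.541 at brf-1, 0.331 at tbp-1 and 0.256 at rpc-1, where the median over coding genes was 0.275. As many candidates per kb were found at 17.4% of coding genes for snpc-4 and at 53.5% for rpc-1.

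**Figure D1:**
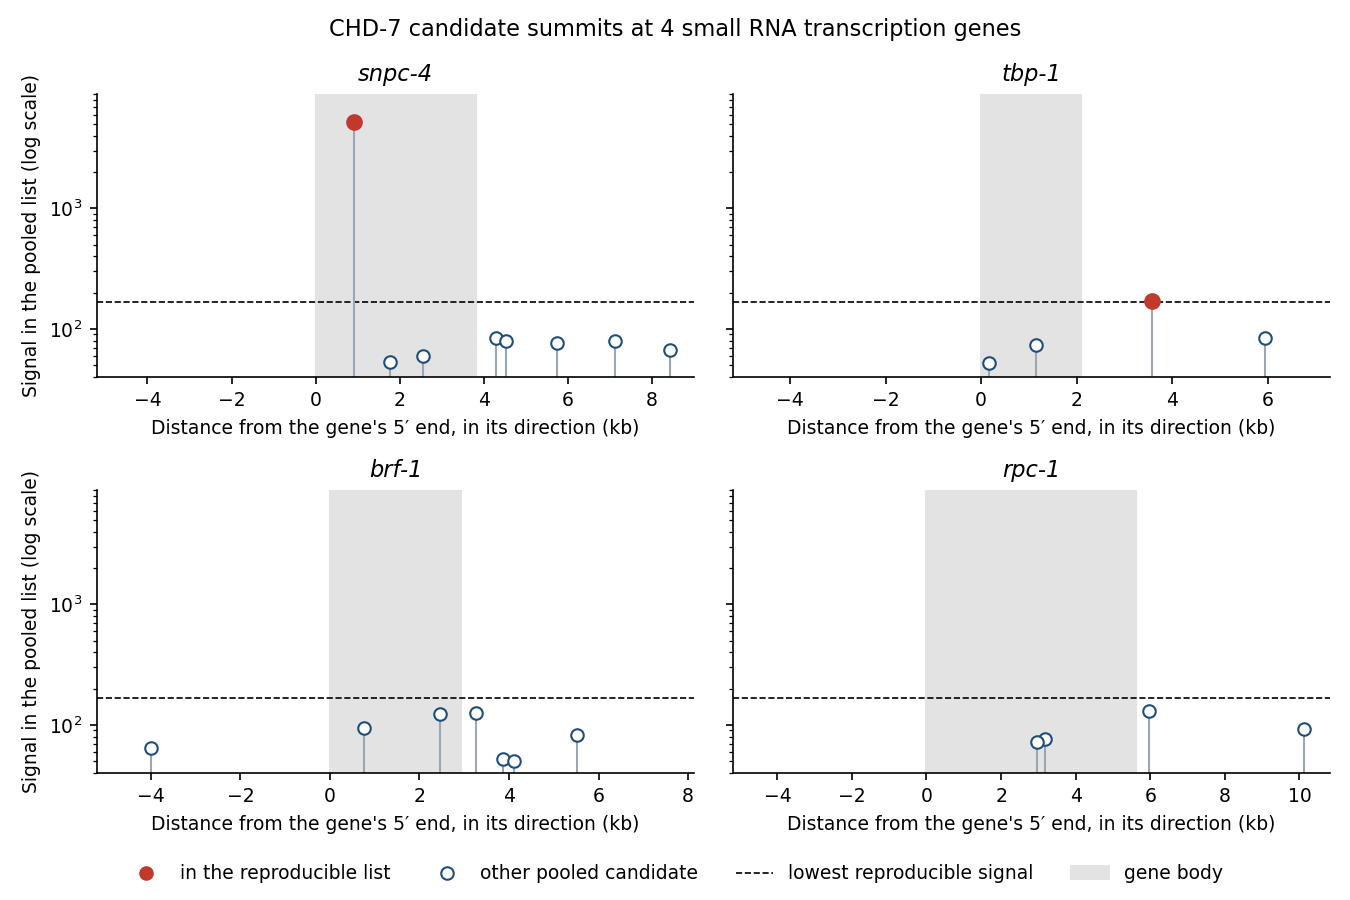
Signal of every pooled candidate summit (log scale) against its distance in kb from the 5′ end of the gene, in the direction of transcription, for the 4 genes. Filled points are in the reproducible list, open points are not, and the dashed line is the lowest reproducible signal, 165.7. The single summit at 5232 inside snpc-4 and the one at 170.7 beyond tbp-1 are the filled points.

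A reproducible summit was found in the gene or within 5 kb for 2 of the 4 genes, and for 19.2% of all protein-coding genes. A pooled candidate was found for 4 of 4, and for 79.6% of coding genes. A reproducible summit inside the gene was found for 1 of 4, snpc-4, and for 3.61% of coding genes. None of the 4 had one in the promoter window, taken as 1000 bp upstream to 200 bp downstream of the 5′ end, where 4.18% of coding genes did. Because the genes were selected on these lists, nothing is read from those counts.

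At snpc-4 (WBGene00001568, ce11 chromosome I, 8962322 to 8966129, forward strand), the summit was the entry of highest signal in the pooled list, in replicate 1 and in replicate 2. It was 3.59 times the second entry of the reproducible list, which had 1457, and 5.14 times the tenth, which had 1019. Within replicate 1 it was 5.04 times the second entry, 748, and within replicate 2 it was 2.13 times the second, 703. The gap below it was thus wider in replicate 1. Of the summed signal it made up 1.03% in the reproducible list. Ranks in the first 10 of both replicates were found for 8 of the 1884 reproducible entries. A candidate as strong was found for 0.02% of coding genes, which is the same summit counted for every gene within 5 kb of it.

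The summit lay in the body of snpc-4 and not at its start. The pooled summit, at position 8963237, was 915 bp from the 5′ end, in coding exon 3 of 13 in both annotated transcripts. That exon runs from 8963149 to 8963375 and is 227 bp long. The replicate summits fell at 8963237 and 8963235, 2 bp apart, where the median distance between replicate summits was 30 bp and 8.96% of the reproducible entries met in both replicates were as close. The pooled interval ran from 8962814 to 8963494 and overlapped exons 2 to 4, with 564 of its bases, 82.8%, in exons. In replicate 1 the interval was 671 bp wide and in replicate 2 684 bp, with 82.6% and 82.9% in exons.

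**Figure D2:**
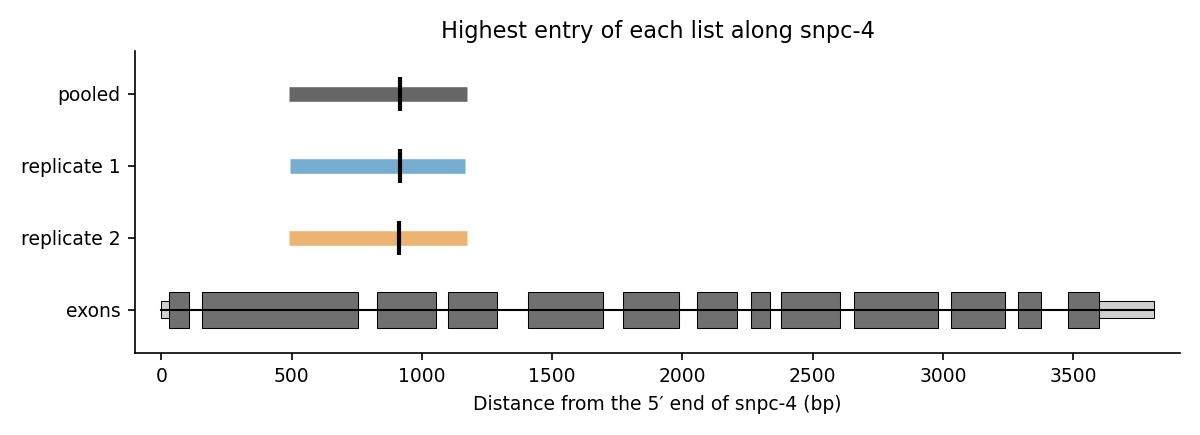
Interval (coloured bar) and summit (black tick) of the highest entry of the pooled list and of each replicate, against distance in bp from the 5′ end of snpc-4, above the exons of its longest transcript, with coding sequence dark and untranslated sequence light. All 3 intervals run from exon 2 to exon 4, and the summits stand at 915, 915 and 913 bp.

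The snpc-4 entry was also wide, at 681 bp, the 12th widest of the reproducible list, in which 1532 entries had the same width of 390 bp, 309 were narrower and 43 were wider. The 43 wider entries had a median signal of 518 and the 390-bp entries one of 204. All other 22 candidates of the 4 genes were 390 bp wide.

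The other candidates around that site were weak but not few. These 7 candidates had signals of 52.8 to 84.2, so the top one was 62.2 times the next in the region. Within the replicate lists it was 63.2 times the next entry of the region in replicate 1 and 36.9 times in replicate 2. That next entry of replicate 1, with 59.7, met no pooled candidate. The weak candidates inside the gene lay in exon 6 (52.8, met in replicate 2 alone) and exon 9 (60.0, met in replicate 1 alone). The rest lay beyond its 3′ end, with 84.2 and 79.0 in mdt-31, a Mediator subunit gene that overlaps the end of snpc-4 by 16 bp, 75.9 and 79.2 in the centrosome gene spd-2, and 66.5 in F32H2.10. The last of these summits was also 379 bp upstream of thoc-3 and 679 bp upstream of spd-2. No candidate lay upstream of snpc-4 within 5 kb, and the nearest reproducible summit outside the region was 85095 bp away. The nearest transfer RNA gene was 9996 bp from the snpc-4 summit.

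**Figure D3:**
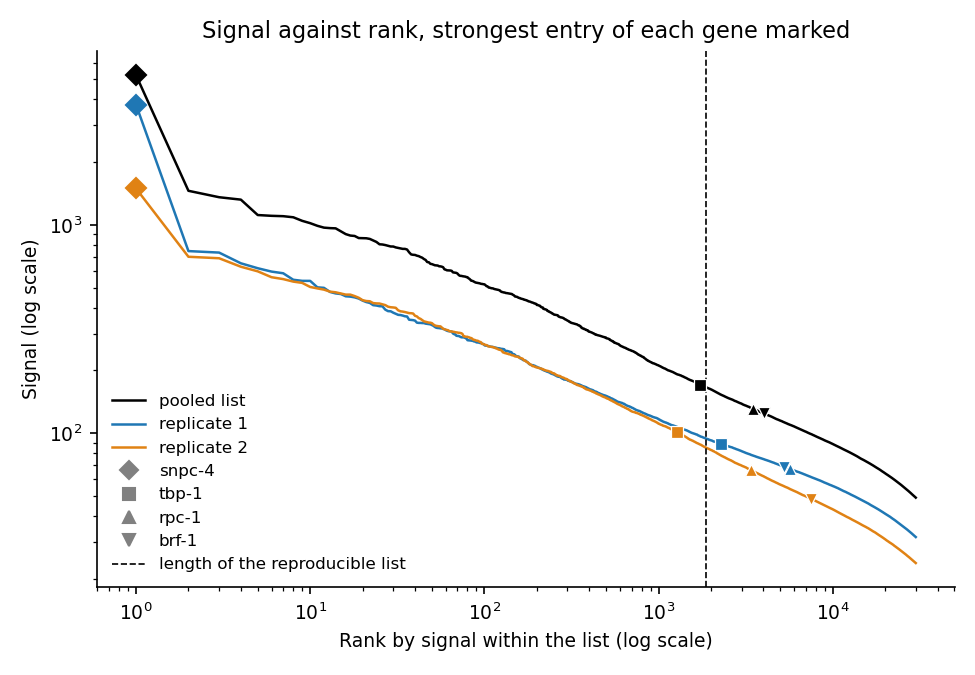
Signal (log scale) against rank by signal (log scale) in the pooled list and in each replicate, with the strongest entry of each of the 4 genes marked. The snpc-4 entry stands at rank 1 of all 3 lists with 5232, 3774 and 1495, while the others fall near or past the dashed line at 1884, the length of the reproducible list.

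The genes most like snpc-4 in rank were sought among 816 of the 834 coding genes with a reproducible promoter summit. They were compared by the summed absolute difference in log10 rank over the reproducible list and the 2 replicates. The nearest was rpl-3, a ribosomal protein gene, at a distance of 0.903, with rank 2 in all 3 lists and a signal of 1457. K01G5.10 and tasp-1 followed at 1.78 with a single shared summit of rank 4, which ranked 5 in replicate 1 and 3 in replicate 2 and had a signal of 1321. By the rule of the search all genes compared had a summit at the promoter, which snpc-4 lacks, and strong entries elsewhere were not compared. Since snpc-4 ranked 1 in all 3 lists, the nearest genes could only be those ranked highest below it.

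At tbp-1 (WBGene00006542, ce11 chromosome III, 7384033 to 7386124, forward strand, 4 exons), the gene itself held only weak candidates. One lay in exon 1, 163 bp from the 5′ end, with a signal of 52.1, and was met in replicate 2 alone, at 44.1. Another lay in exon 2, with 73.6, and was met in replicate 1 alone, at 45.1. The reproducible summit that gave tbp-1 its count lay 1481 bp past its 3′ end, at position 7387605, in intron 2 of the next gene, trd-1, which starts 104 bp after tbp-1 ends. Its signal of 170.7 was near the lower limit of the list, with 152 of 1884 reproducible entries at or below it, and 17.9% of coding genes had a candidate as strong. In the pooled list it ranked 1733, in replicate 1 2279 with a signal of 88.8 and in replicate 2 1280 with 101. The replicate summits were 121 bp apart. A list of the same length taken from replicate 1 alone, leaving out replicate 2, did not contain it, nor did the higher-signal part of the reproducible list split at its median, and either way tbp-1 had 0 reproducible summits. With 10 kb on either side it had 2, the other at 7495 bp.

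The pooled summit near tbp-1 was 16 bp upstream of T20B12.12, a non-coding RNA gene of 91 bp on the forward strand (7387621 to 7387711) inside that intron. The summit of replicate 1 was close to the pooled one, at 7387609. That of replicate 2 was at 7387488, 117 bp further from the gene than the pooled summit. The GGTTCGA printed in capitals above spans 7387673 to 7387679, bases 53 to 59 of T20B12.12 and 68 to 74 bp from the pooled summit. It was the 1 window of the 23 with this motif within 75 bp on either strand, and 7.75% of reproducible windows had it (95% Wilson interval 6.63 to 9.04%, which covers counting error only). With 50 bp on either side the motif fell outside, in 0 of 23 windows. No gene annotated as transfer RNA, small nucleolar RNA, small nuclear RNA or ribosomal RNA lay within 1 kb of any of the 23 summits, and the nearest to each was 9996 to 126878 bp away. By rank, among the same coding genes with a promoter summit, tbp-1 was most like T28D9.1 and T28D9.11, at a distance of 0.0385. They share a summit of rank 1656, with ranks of 2235 and 1250 in the replicates. Next was cal-5, at 0.132. The last candidate of the region, with 83.3, was in exon 6 of trd-1.

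At brf-1 (WBGene00000271, ce11 chromosome II, 7305858 to 7308792, forward strand, 8 exons), none of the 7 candidates was reproducible, and the nearest reproducible summit was 10924 bp away. The pair of strongest lay on either side of its 3′ end. One, with a signal of 124.5, was 321 bp past the end, in F45E12.5, a gene on the opposite strand that overlaps brf-1 by 94 bp, where it was exonic in 1 of 2 transcripts. The other, with 124.0, was in intron 7 of brf-1. They ranked 4032 and 4075 in the pooled list. In replicate 1 the intron summit was the higher, 74.0 against 69.0, and in replicate 2 the lower, 39.6 against 48.4, so their order was not settled by the replicates. Another candidate, in exon 3, had 94.1, from 44.0 in replicate 1 and 46.8 in replicate 2. The others had 49.7 to 82.8. One of them, 4005 bp upstream of brf-1, was 248 bp upstream of cul-4, the gene of a ubiquitin ligase scaffold. This candidate had 64.8 and was met only in replicate 2, at 48.6. Those with 51.8 and 49.7 were met only in replicate 1, by the same entry. The last, in intron 1 of cnep-1, was met only in replicate 2, where its signal of 55.6 was the highest of the region. Of coding genes, 33.6% had a candidate as strong as that of brf-1.

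At rpc-1 (WBGene00004411, ce11 chromosome IV, 7160135 to 7165748, reverse strand, 13 exons), none of the 4 candidates was reproducible, and the nearest reproducible summit was 109044 bp away. The strongest, with a signal of 131.1 and rank 3470, lay 355 bp past the 3′ end, in intron 8 of maph-9, a gene on the opposite strand that overlaps rpc-1 by 22 bp. It had 67.1 in replicate 1 and 66.4 in replicate 2. Both candidates inside rpc-1 were in exon 9, with 76.3 and 71.7. The last, in exon 4 of C34D4.2 and 996 bp upstream of maph-9, had 92.6. In replicate 1 it ranked 2932, with 82.6, and in replicate 2 27949, with 25.1, the widest split among the 15 summits of the 4 genes met in both replicates. The first 2969 bp of rpc-1 and the 5 kb upstream held no candidate, and 30.1% of coding genes had a candidate as strong as its strongest.

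**Figure D4:**
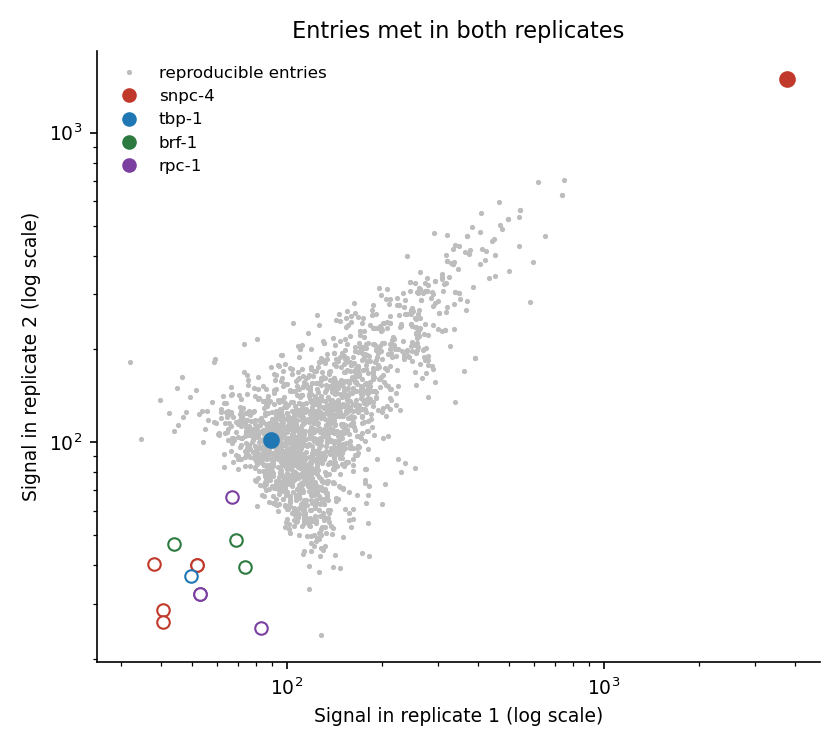
Signal in replicate 1 against signal in replicate 2 (both log scales) for reproducible entries (grey) and for the candidates of the 4 genes that were met in both replicates, filled where reproducible. snpc-4 lies alone at 3774 and 1495, tbp-1 at 88.8 and 101 falls within the grey cloud, and the open points lie at its lower edge or below it.

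Over the 23 summits, 19 were met by an entry in replicate 1, 19 in replicate 2 and 15 in both, where any overlap sufficed. With a larger shared part of the interval required, 13 were met in both. With the replicate summit within 150 bp of the pooled one, 12 were. In 3 pairs neighbouring candidates overlapped and were met by the same replicate entry, so these counts are not of separate entries. Of the 2 reproducible summits, that at snpc-4 was within the first 1884 ranks in both replicates and that near tbp-1 in replicate 2 alone. Of all reproducible entries, 58.3% were within that rank in both. The other 21 candidates were below the lowest reproducible signal in the pooled list, and none was within that rank in either replicate. By position, 9 summits were inside the 4 genes, 1 was upstream and 13 were past the 3′ end, in neighbouring genes. Of the 9, 8 were in coding exons and 1 in an intron. These counts include the overlapping pairs. The same positions were not counted over all pooled candidates, so nothing particular to the 4 genes is read from them. The share of G and C in the 151 bases around a summit was 31.8 to 53.6%, with a median of 42.4%, and that at snpc-4 was 43.0%. Over all reproducible summits the median was 47.7%. Motifs were searched within 75 bp on either strand, and since 21 of the 23 summits were outside the reproducible list, their counts stand beside the share of all 28116 such candidates. TATAAA, the TATA box read by TBP, was near 3 of the 21, and near 7.84% of such candidates and 7.06% of reproducible summits. GAGAGA was near 2 of the 21, and near 13.0% of such candidates and 30.3% of reproducible summits. The B box core GGTTCGA was near 0 of the 21 and 1.77% of such candidates. CTGTTTC, the core of the upstream motif of piRNA genes, was near 0 of the 21, and near 2.62% of such candidates and 3.24% of reproducible summits. The E box CACGTG was near 0 of the 21, and near 4.92% of such candidates and 9.87% of reproducible summits. None of the 5 motifs lay within 75 bp of the snpc-4 summit.

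Other genes of the transcription machinery were read from 12 lists with 73 names, of which 67 were in the annotation, the 4 genes included. Without the 4, 15 of 63 genes (23.8%) had a reproducible summit in the gene or within 5 kb, beside 19.2% of coding genes. In the lists closest to the 4 genes, namely SNAPc, its piRNA partners, the TBP family, TFIIIB, TFIIIC, RNA polymerase III and its repressor, it was 3 of 17 (17.6%). These 3 were snpc-3.4, prde-1 and rpc-2. snpc-3.4, for another SNAPc subunit, had a signal of 337 at 4223 bp upstream, with rank 1374 in replicate 1 and 132 in replicate 2. prde-1, for a partner of SNPC-4 at piRNA genes, had 2 reproducible summits. The stronger, with 240, was 4752 bp past the end of prde-1. It lay in a transfer RNA gene (WBGene00014352) and also in acr-18 and F28F8.12. rpc-2, for the second largest subunit of RNA polymerase III, had 352 at 99 bp inside its 5′ end and ranked 405 and 301 in the replicates, so it was the 1 of the 17 with a summit in the promoter window. TFIIIC had 0 of 3. For tftc-5 the strongest candidate had 163, just under the limit, and lay 3863 bp upstream, in the gene C36E8.10. The repressor mafr-1 had 96.2 at 4316 bp past its end.

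Among the remaining lists, RNA polymerase I had 1 of 4, the shared subunits 2 of 7, the RNA polymerase II core 2 of 7, TFIIB and TFIID 4 of 18 and Integrator 3 of 10. Promoter summits were found for rpac-19 (a subunit shared by polymerases I and III), with a signal of 244 at 138 bp upstream, and for rpb-11 of polymerase II, with 250 at 148 bp upstream. The TFIID subunit genes taf-4 and taf-12 each had 200, at 188 and 929 bp upstream. Other leading genes had their summit elsewhere. ints-8, for a subunit of the complex that processes small nuclear RNAs, had 856 with rank 22, at a site shared with rpr-1, the RNA of ribonuclease P. taf-11.2 had 257 at 4424 bp upstream, and rpoa-12 had 234 in the neighbouring gene pas-1. The signal at snpc-4, the highest of the whole pooled list, was necessarily above that of every other gene in these lists.

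**Figure D5:**
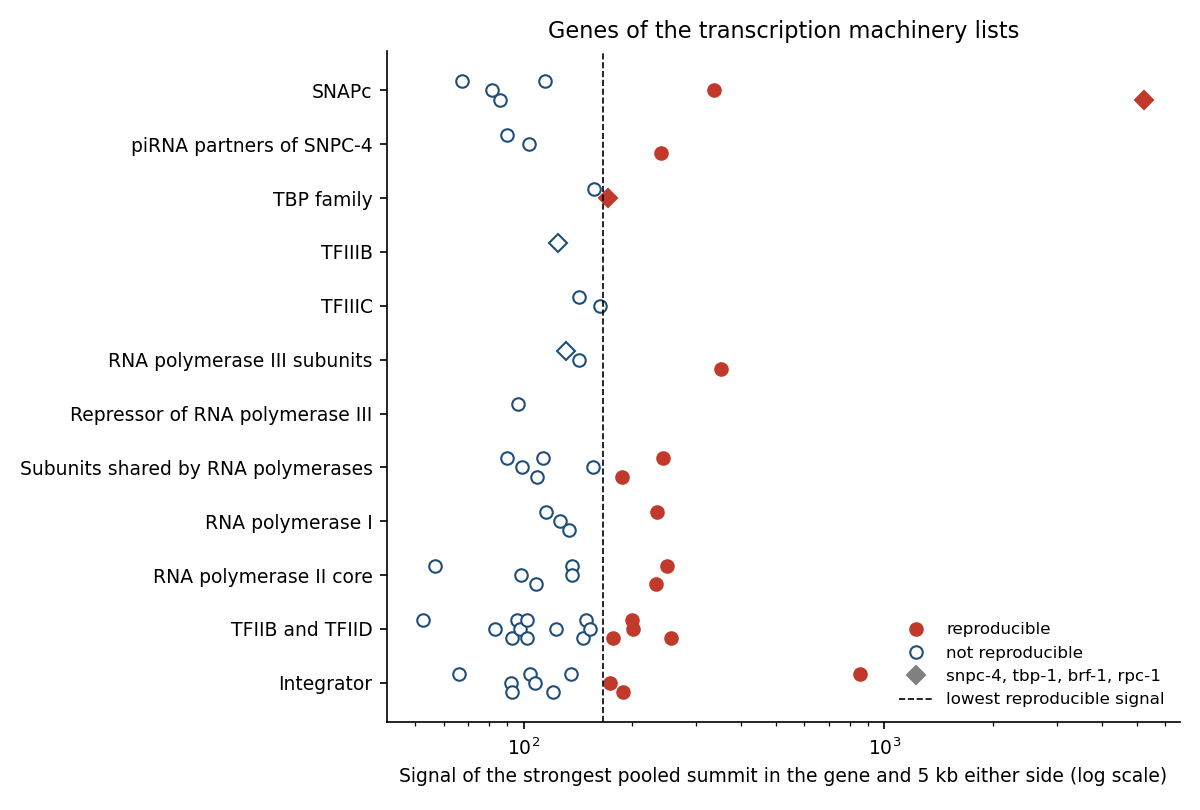
Signal of the strongest pooled summit in the gene and within 5 kb (log scale) for each gene of the 12 lists that had one, filled where the gene had a reproducible summit, with the 4 genes as diamonds. The dashed line at 165.7 is the lowest reproducible signal, and snpc-4 at 5232 stands to the right of ints-8 at 856.

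At the edges of the rule, the last candidate within 5 kb and the first beyond it had signals of 66.5 at 4631 bp and 71.4 at 7270 bp for snpc-4 and of 83.3 at 3854 bp and 91.5 at 5028 bp for tbp-1. For brf-1 they were 64.8 at 4005 bp and 66.5 at 5332 bp, and for rpc-1 92.6 at 4503 bp and 55.7 at 7804 bp.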

How the data were processed

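ChIP-seq peak lists from 2 biological replicates were used on the ce11 build. Samples were grouped by their descriptions into 1 group. Per the submitters' deposited notes, each list was called against 1 control alignment and the reproducible list came from an irreproducible discovery rate (IDR) comparison of the replicate and pooled lists. Which caller and aligner were used, with which versions and IDR cutoff, is not given in the sources used. The deposited signal column was used to rank entries within a list. In the deposited −log10 q column 1350 of 1884 reproducible entries share the highest value, 3.43, so it gives no ranks. The deposited offset column was added to the start to give each summit, written 1-based. The ce10 lists were not used.

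Genes came from Ensembl release 115 (WBcel235) and sequences from RefSeq. A replicate entry met a pooled summit where the intervals shared at least 1 bp. Repeated intervals, 11 in the reproducible list, were kept. The lists hold no read counts, so depth is unknown, and 2 replicates limit the precision. The 4 genes, the lists and the motifs were chosen with earlier results of these data known. Genes named were the 4, list genes with a promoter summit, the highest reproducible gene of each list, neighbours holding a summit, and the genes nearest in rank. tftc-5, mafr-1 and snpc-3.4 were named after their values were seen. Python 3.11.15, numpy 2.4.6, pandas 2.3.3 and matplotlib 3.10.9 were used, and the overlap, matching and motif functions were tested on simulated data. Alternatives changed the distance, the promoter window, the gene set, the match, the motif window, the signal limit and the replicates used.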

Additional observations from a re-analysis of the deposited data

How the results depend on the processing

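A count was taken as near its main value when it was within 1.5 times of it, and the share of all coding genes when it was within its 95% Wilson interval. By these limits 19 of 28 alternative values of the totals were near and 9 were not. The share of genes with a reproducible summit, 19.2% within 5 kb, was 29.1% within 10 kb, 12.1% within 2 kb, 4.18% in the promoter window, 14.8% over all annotated genes and 11.08% with the reproducible entries above the median signal. The count of listed genes, 17, was 26 within 10 kb and 5 in the promoter window, and 14 without replicate 1 and 22 without replicate 2. The 2 reproducible summits became 1 with the entries above the median signal, and ranged from 1 to 2 when a replicate was left out, with tbp-1 lost without replicate 2, since it ranked 2279 in replicate 1. The 23 candidates were 34 within 10 kb and 17 within 2 kb, and the 6 matches of the motifs were 9 at 150 bp and 5 at 50 bp. For the single genes 52 of 56 values were near, though not all equal: within 2 kb the candidates of snpc-4 were 6 against 8 and those of brf-1 5 against 7, within 10 kb those of rpc-1 were 6 against 4, and without replicate 1 those of tbp-1 were 6 against 4. The 4 beyond 1.5 times were all of tbp-1, namely its candidates, 10 within 10 kb, and its reproducible summits. No paired analysis was possible because the replicates form 1 group and no test was run. The depth behind the lists is unknown, so a missing entry does not show that binding was absent.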
